A study of Rattus norvegicus with 12 samples.

Results

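The levels of 6 genes known from the ciliary body and the zonule of the eye were followed in rat lenses, namely Slc4a5, Slc26a4, Slc13a3, Enpp2, Optc and Fbn1. They were taken by name, as the probe set annotated with that gene symbol alone, and each of the 6 had exactly 1 probe set among the 18166 genes measured. The names were chosen by their measured signals, which were lower at 10 weeks than at 4 weeks in ICR lenses, and all 6 stood in the list of decreased genes that the study drew from these arrays. The age differences in ICR lenses are therefore given as a description, with no test. The values are log2 RMA signals, a scale on which a difference of 1 is a doubling, from Rat Gene 2.0 ST arrays.

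ICR lenses (Ihara Cataract Rat, ICR/Ihr, a strain with a recessive hereditary cataract) were measured at 4, 8 and 10 weeks of age, with 3 arrays per age. Sprague Dawley (SD) lenses, from rats without cataract, were measured at the same ages with 1 array each, so 12 arrays in all. The rats were male, and in ICR rats cortical opacity was present at 8 and 10 weeks but not at 4 weeks. The sources do not say whether an array held a lens of a separate animal or a pool, so the spread between replicates may be partly technical. The ICR strain serves as the cataract model without its causative gene being known, and strain differences are not limited to the cataract.

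The ciliary body is the folded ring of tissue behind the iris. Its double-layered epithelium moves bicarbonate, chloride and other ions into the eye to form aqueous humour, and its inner layer also secretes matrix proteins into the vitreous. The zonule is the set of fibres, built mainly of fibrillin microfibrils, that runs from the ciliary body to the lens capsule and holds the lens in place. None of these structures is part of the lens itself. In a bulk extract such as these, fewer cells of a type and less RNA per cell cannot be told apart.

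The arrays held lens RNA by their markers. All 8 lens fibre genes measured, among them Bfsp1 and Grifin, and all 13 lens epithelium genes reached a signal of 5, the minimum the study used, on at least 1 array. Of the ciliary and zonule lists, besides the 6 genes, 12 of 23 ciliary epithelium transport genes, 7 of 23 identity and secretion genes and 6 of 20 zonule genes reached 5. Markers of the remaining tissues were mostly below 5 on all 12 arrays, as 0 of 7 iris and ciliary muscle genes, 0 of 10 neural retina genes and 0 of 7 blood, vessel and leukocyte genes reached it. Of the 9 pigment cell genes only Mitf did, and the melanin enzymes Tyr, Tyrp1 and Dct and the melanosome proteins Pmel and Mlana did not. Of the retinal pigment epithelium and cornea lists 1 gene each, Mertk and Krt13, reached 5. The ICR arrays with replicate number 1 stood apart from the other 6 on the first principal component, which held 67.6% of the variance, and each of the 3 had more genes at a signal of 5 or above (3531 to 3934) than any of the others (3115 to 3271).

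The first group of genes transports ions and organic acids across epithelia. Slc26a4 encodes pendrin, an exchanger of chloride for iodide and bicarbonate. Its signals were 7.01, 7.44 and 5.34 at 4 weeks, 6.14, 4.56 and 5.51 at 8 weeks, and 3.61, 3.66 and 5.02 at 10 weeks in ICR lenses, replicates 1 to 3 in order, against 5.36, 5.72 and 4.01 in SD lenses at 4, 8 and 10 weeks. The lowest 4-week ICR array still lay above the highest 10-week one, while the 8-week arrays overlapped both ages. The ICR mean was 4.10 ± 0.80 at 10 weeks and 6.60 ± 1.11 at 4 weeks (SD, n = 3 each), a difference of -2.50 or 5.65-fold, the widest of the 6.

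Slc13a3 encodes a sodium-coupled transporter of succinate and other dicarboxylates. Its signals were 4.94, 5.49 and 4.34 at 4 weeks, 4.47, 3.85 and 4.43 at 8 weeks, and 2.97, 3.29 and 4.02 at 10 weeks in ICR lenses, against 4.51, 4.62 and 4.54 in SD lenses. Replicate 2 at 4 weeks was the only one of the 12 arrays at or above 5, so this gene passed the filter through the age at which it was highest. The ICR mean was 3.43 ± 0.54 at 10 weeks and 4.92 ± 0.57 at 4 weeks (n = 3 each), a difference of -1.50, with no overlap. The 3 SD arrays differed by little and included no low value at 10 weeks.

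Slc4a5 encodes an electrogenic sodium bicarbonate cotransporter. Its signals were 5.73, 6.50 and 5.17 at 4 weeks, 5.49, 4.78 and 5.54 at 8 weeks, and 5.13, 4.56 and 4.45 at 10 weeks in ICR lenses, against 5.40, 6.45 and 4.42 in SD lenses. It had the narrowest ICR difference of the 6, -1.08 between 4.71 ± 0.37 at 10 weeks and 5.80 ± 0.67 at 4 weeks (n = 3 each). The 10-week and 4-week ICR arrays did not overlap, but only by a gap between 5.13 in 10-week replicate 1 and 5.17 in 4-week replicate 3.

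The second group consists of proteins secreted outside the cell. Enpp2 encodes autotaxin, a secreted lysophospholipase D that makes lysophosphatidic acid. Its signals were 6.01, 7.11 and 5.32 at 4 weeks, 6.29, 4.73 and 5.97 at 8 weeks, and 3.86, 4.24 and 4.52 at 10 weeks in ICR lenses, against 5.91, 6.51 and 5.27 in SD lenses. All 3 ICR arrays at 10 weeks lay below all 6 younger ones. The 10-week mean was 4.21 ± 0.33 against 6.15 ± 0.90 at 4 weeks, a difference of -1.94.

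Optc encodes opticin, a small leucine-rich repeat protein that the non-pigmented ciliary epithelium secretes into the vitreous. Its signals were 6.95, 7.73 and 5.75 at 4 weeks, 6.38, 5.03 and 6.66 at 8 weeks, and 4.55, 4.88 and 6.05 at 10 weeks in ICR lenses, against 6.90, 6.99 and 5.24 in SD lenses. Here the ages overlapped, since 10-week replicate 3 at 6.05 lay above 4-week replicate 3 at 5.75. The means were 5.16 ± 0.79 at 10 weeks and 6.81 ± 0.99 at 4 weeks, a difference of -1.65.

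Fbn1 encodes fibrillin-1, the main structural protein of zonular microfibrils. Its signals were 6.26, 7.65 and 5.87 at 4 weeks, 5.83, 4.78 and 6.29 at 8 weeks, and 3.59, 4.32 and 5.22 at 10 weeks in ICR lenses, against 6.31, 6.58 and 4.68 in SD lenses. The 10-week arrays lay below the 4-week arrays without overlap. The means were 4.38 ± 0.81 and 6.60 ± 0.93 at those ages, a difference of -2.22, and the highest and lowest of the 9 ICR arrays were 16.7-fold apart.

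**Figure D1:**
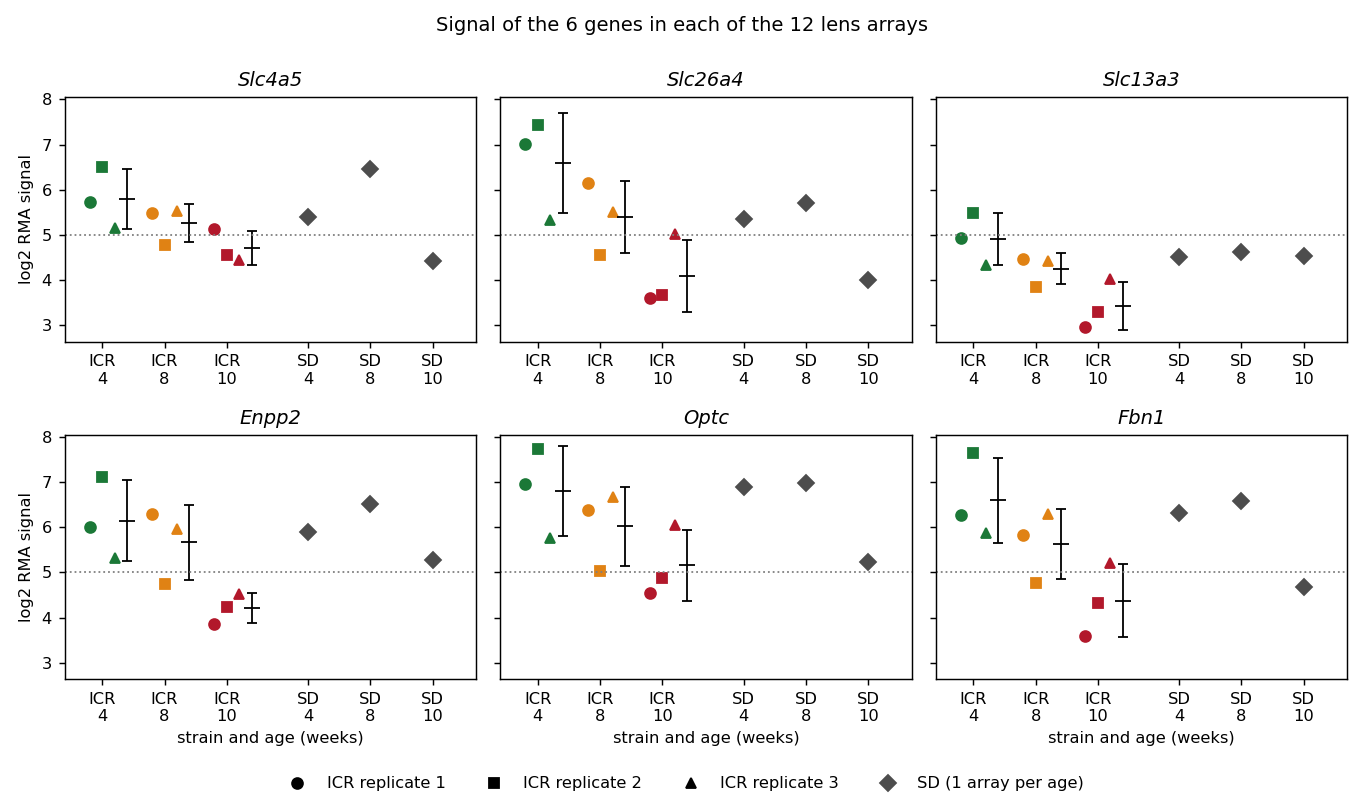
Log2 RMA signal (y axis) of each gene on each array, by strain and age in weeks (x axis), with the 3 ICR replicates as circle, square and triangle, SD arrays as diamonds, ICR means ± SD (n = 3) as black bars and the minimum of 5 dotted. The 10-week ICR means lie below the younger ICR means in each gene, single arrays of different ages overlap, as in Optc, and the square is the highest ICR symbol at 4 weeks and the lowest at 8 weeks in all 6 genes.

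With time, the mean over the 6 genes in ICR lenses was 6.15 ± 0.84 at 4 weeks, 5.37 ± 0.65 at 8 weeks and 4.33 ± 0.49 at 10 weeks (SD over arrays, n = 3 each). The 10-week minus 4-week difference averaged -1.81 over the genes, and -1.62 without the replicate 1 arrays. It was negative for all 6, beside 65.5% of the 4546 genes tested in ICR lenses. It was without overlap for 5 of 6, beside 13.0% of genes, and past the study's 2.25-fold limit for decreases for 5 of 6, beside 1.01% of genes. Folds here come from means of log2 signals. By them Slc4a5, which the study listed as decreased, was at 2.12-fold at 10 weeks and 1.44-fold at 8 weeks. The study's folds were thus not the same measure. Since the 10-week and 4-week values chose the genes, nothing is read from that contrast. The 8-week minus 4-week difference averaged -0.77 and ranged over the genes between -1.19 and -0.48, with all 6 negative (63.3% of all genes were), 0 of 6 free of overlap (8.47% were) and only Slc26a4 past 2.25-fold (0.11% were). That mean rested on a few arrays, being -0.35 without 4-week replicate 2, -0.40 without 8-week replicate 2, -1.20 without 4-week replicate 3, and 0.024 without the replicate 2 arrays of all 3 ages. Between 10 and 8 weeks the mean difference was -1.04, all 6 were negative (56.9% of all genes were), only Enpp2 was free of overlap (3.85% were), and Enpp2, Slc26a4 and Fbn1 were past 2.25-fold (0.198% were). Without the replicate 1 arrays that mean was -0.66. The 8-week and 10-week differences share the same 4-week arrays. Choosing genes by low 10-week and high 4-week signals also pulls the 10 minus 8 and 8 minus 4 week differences downwards. Their counts are therefore a description too, and nothing is read from their shares beside all genes.

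Within an age, the 6 genes followed the array. The order of arrays within an age was not itself used to choose the genes, but it is read from the same arrays, and choosing by a low 10-week mean against the 4-week mean favours genes that were high on some 4-week arrays or low on some 10-week ones. Without 4-week replicate 2 the mean 10-week minus 4-week difference was -1.39. The shares of all genes given here are of genes not chosen in that way, and the counts are a description. At 4 weeks, replicate 2 was the highest and replicate 3 the lowest array for 6 of 6 genes, an order that 11.0% of all genes tested had. Across genes in general, replicate 1 was the highest 4-week array, for 65.4% of them. At 8 weeks, replicate 2 was the lowest for 6 of 6 (38.0% of all genes), whereas replicates 1 and 3 were the higher array for 3 genes each. At 10 weeks, replicate 3 was the highest and replicate 1 the lowest for 5 of 6 (22.6% and 28.0% of all genes), and Slc4a5 ran the other way, with replicate 1 highest and replicate 3 lowest.

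The gaps between arrays of the same age were wide. At 4 weeks, replicate 2 exceeded replicate 3 by a median of 1.79 over the 6 genes, with a range of 1.15 to 2.10, while the median over all genes was -0.0046. At 8 weeks, replicate 1 exceeded replicate 2 by a median of 1.20 and replicate 3 exceeded it by 1.09. At 10 weeks, replicate 3 exceeded replicate 1 by a median of 1.23, although the median over all genes was -0.15. The within-age SD of the 6 genes lay between 0.50 and 0.91, against a median of 0.26 over all genes tested. The 8-week replicate 2 array, at a mean of 4.62 over the 6 genes, lay below the 10-week replicate 3 array at 4.88.

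**Figure D2:**
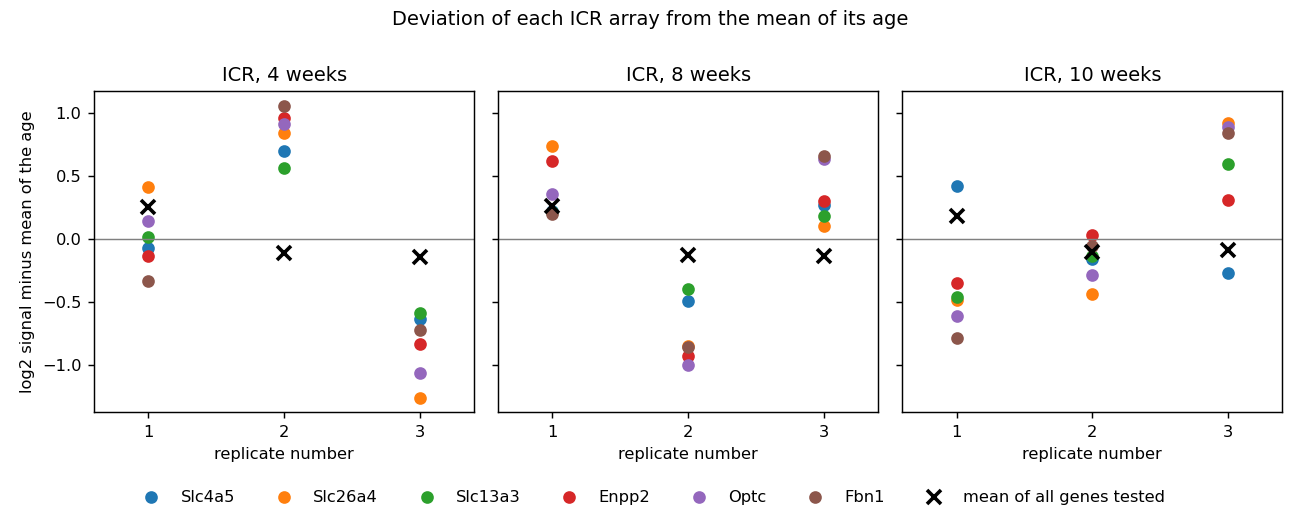
Log2 signal of each of the 6 genes minus its mean over the 3 ICR arrays of that age (y axis), by replicate number (x axis), 1 panel per age, with crosses for the mean of all 4546 genes tested. The genes lie together above 0 in 4-week replicate 2 and below 0 in 4-week replicate 3 and 8-week replicate 2, and at 10 weeks Slc4a5 lies opposite to the other 5.

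The direction of these array differences changed between ages and so did not follow the replicate number. In the 9 ICR arrays, age held a median of 64.3% of the sum of squares of the 6 genes (a share the choice of genes raises), the replicate number 1.49%, with a range of 0.245% to 7.36%, and the single array within age and number 33.7%. Over all genes tested the medians were 15.6%, 52.5% and 18.7%. Optc had the largest share in the single array, 52.4%, and Slc4a5 the largest share in the replicate number. The 3 shares of a gene add up to the whole, so the choice of genes by a wide age difference also lowers their share in the replicate number, and nothing is read from the contrast with all genes.

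**Figure D3:**
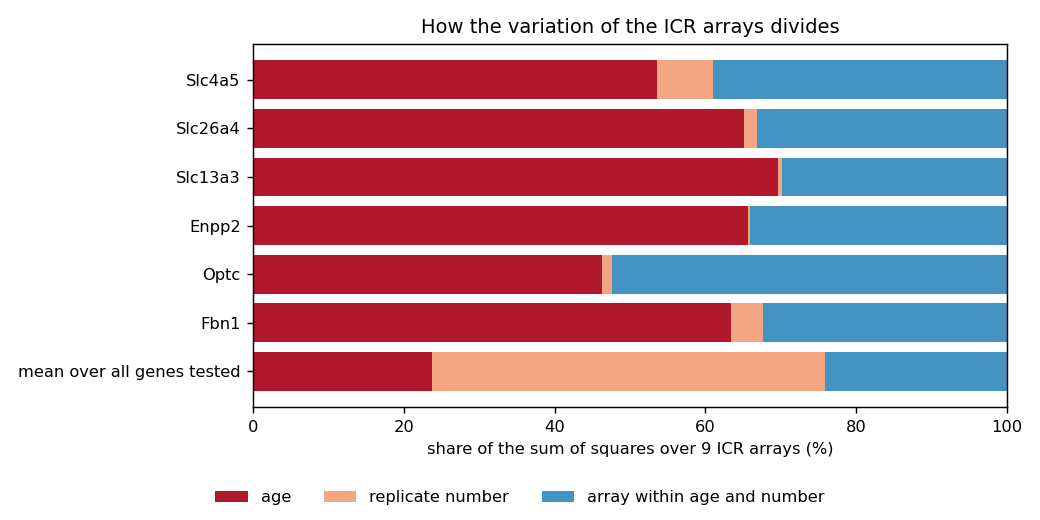
Share of the sum of squares of log2 signal over the 9 ICR arrays (x axis, %) held by age, replicate number and the single array within both, for each of the 6 genes and as the mean over all 4546 genes tested. The replicate number holds at most 7.36% in any of the 6 genes and 52.1% on average over all genes.

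As a description of likeness, each gene's signals were correlated with the mean of the other 5. Over the 12 arrays Pearson's r was highest for Fbn1 (0.97) and lowest for Slc4a5 (0.80). Over the deviations of the 9 ICR arrays from the mean of their age it was highest for Optc (0.97) and lowest for Slc4a5 (0.61). Points of the same array share its RNA and its normalization, and the age differences that chose the genes enter the values over 12 arrays.

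The genes most like the mean of the 6 over the 12 arrays, among 4621 others, were Pgap1 (r = 0.98), Fbln1 (0.97), Sned1 (0.96), Reln (0.95), Slc6a13 (0.95), Pde1c (0.94), Col9a1 (0.93) and Fmod (0.93). Pgap1 encodes an enzyme that remodels GPI anchors, Fbln1 the matrix protein fibulin-1, Reln the secreted glycoprotein reelin, Slc6a13 a GABA and taurine transporter, Pde1c a cyclic nucleotide phosphodiesterase, Col9a1 a chain of the type IX collagen of the vitreous, and Fmod the leucine-rich repeat protein fibromodulin. Over the within-age deviations, which do not contain the age difference, the 8 most alike were Fbln1 (0.96), Pgap1 (0.95), Ctnnb1 (0.95), Reln (0.94), Sned1 (0.94), Nlgn1 (0.93), Slc16a12 (0.93) and Slc6a13 (0.93). The median r over all genes was 0.13 over the 12 arrays and 0.04 within ages, and the 99th percentile was 0.81 and 0.80. Pgap1, Reln and Pde1c reached a signal of 5 on ICR 4-week replicate 2 alone, at 5.01, 5.14 and 5.39. Among ICR arrays Slc16a12 also reached it only there, at 5.12. Nlgn1 reached it on ICR 4-week replicates 1 and 2 alone, at 5.28 and 5.81. The 6 genes were highest on 4-week replicate 2, so the filter favoured the likeness of Pgap1, Reln, Pde1c and Slc16a12, and in part that of Nlgn1.

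Fbln1, in the list of ciliary epithelium identity and secretion, followed the same arrays. Its signals were 5.97, 6.57 and 4.76 at 4 weeks, 5.26, 4.41 and 5.12 at 8 weeks, and 4.10, 4.00 and 4.71 at 10 weeks in ICR lenses, against 5.48, 5.43 and 4.42 in SD lenses. Replicate 2 was again the highest at 4 weeks and the lowest at 8 weeks, and replicate 3 the highest at 10 weeks.

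Other genes of the same tissues were taken from 5 lists: ciliary epithelium transport, ciliary epithelium identity and secretion, zonule microfibrils and their assembly, pigment cells, and iris and ciliary muscle. Besides the 6 genes, 82 genes of these lists were measured and 24 passed the filter. Of the 24, 13 were in the study's own lists of genes changed in ICR lenses, drawn from these arrays, so that their direction is not independent evidence. At 10 weeks against 4 weeks in ICR lenses, 0 of the 24 passed limma's test at an adjusted p of 0.05, where 0.154% of all genes tested were lower. An unadjusted p under 0.05 was found for 13 of the 24, beside 501 of the 4546 genes tested. The replicate number was also fitted as a block, a choice made from the data and not from the labels. With it, 8 of the 24 fell and 0 rose, beside 7.33% of all genes tested that fell and 1.58% that rose. Of these 8, Slc13a4, Zic1 and Mfap4 reached a signal of 5 in ICR lenses at 4 weeks only, so that they entered the test through the age at which they were high, and 5 also reached it later. The median difference over the 24 was -0.71, against -0.10 over all genes tested, and 18 of 24 were negative, beside 65.5% of all genes tested. Without 4-week replicate 2 the median was -0.47 over the 20 genes that then passed the filter. Of these 20, 7 had an unadjusted p under 0.05, beside 350 of the 4467 genes then tested. Of the 24, 7 reached a signal of 5 at 4 weeks only, and all 7 were negative. Without the filter, 50 of the 82 were negative with a median of -0.08, against 47.0% and 0.02 over all 18166 genes.

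In the transport list, 3 of 10 genes fell with the block and 0 rose. Fxyd6, a regulator of the sodium pump, had signals of 5.28, 4.69 and 5.16 at 10 weeks and 7.03, 6.38 and 5.90 at 4 weeks in ICR lenses. The 10-week arrays lay below the 4-week arrays, and the difference of -1.39 had a limma adjusted p of 0.003 with the block and 0.12 without it. Slc13a4, a sodium sulfate transporter of the same family as Slc13a3, differed by -1.16 (adjusted p = 0.043 with the block and 0.22 without, limma), and passed the filter through 4-week replicate 2 alone, at 5.63. Slc6a13 at -1.37 and the chloride transporter Clcn3 at -0.48 passed neither fit. Of the 10, 6 were negative, and the widest rise was 0.44, in Slc12a2, which passed neither fit.

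In the identity and secretion list, 1 of 7 genes fell with the block. It was Zic1, a zinc finger transcription factor, at a difference of -1.57 (limma adjusted p = 0.028 with the block and 0.18 without). Its mean signals, 2.80 ± 0.16 at 10 weeks and 4.37 ± 0.99 at 4 weeks (n = 3 each), were both below 5. It passed the filter through 4-week replicate 2 alone, at 5.50, so a lower value at later ages was favoured by the filter. Fbln1 at -1.50, Col9a1 at -1.04 and Zic2 at -0.85 did not pass. Of the 7, 6 were negative. Ptgds, the gene of highest signal in the list, went the other way at 0.76 and did not pass either. Its ICR signals were 10.63, 8.41 and 9.67 at 4 weeks and 11.17, 9.90 and 9.92 at 10 weeks. Replicate 2 was thus its lowest array at 4 weeks, opposite to the 6 genes.

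In the zonule list, 3 of 6 genes fell with the block. Loxl1, an enzyme that cross-links elastic fibres, had signals of 4.53, 4.15 and 4.19 at 10 weeks and 5.71, 5.36 and 4.72 at 4 weeks in ICR lenses, a difference of -0.97 (limma adjusted p = 0.007 with the block and 0.27 without). Mfap4 differed by -1.41 (limma adjusted p = 0.046 and 0.39), and reached 5 in ICR lenses only on 4-week replicates 1 and 2, at 5.83 and 5.63. Mfap2, a protein of fibrillin microfibrils, differed by -0.88 (limma adjusted p = 0.026 and 0.45). Mfap2 was in none of the study's lists of genes changed in ICR lenses. Its 4-week signals were 6.43, 5.07 and 4.93 in replicates 1 to 3, so the array that stood high for Mfap2 was replicate 1 and not replicate 2, as it was for the 6 genes. Vcan, the proteoglycan versican, was at -1.10 and did not pass.

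Mitf, the transcription factor of pigment cells, was the only pigment gene tested. Its signals were 5.70, 5.27 and 5.41 at 10 weeks and 6.38, 6.46 and 6.21 at 4 weeks in ICR lenses, without overlap. The difference of -0.89 had a limma adjusted p of 0.009 with the block and 0.12 without. Its 4-week arrays spanned a much narrower range than those of the 6 genes. Tyrp1, below 5 throughout and so not tested, had signals of 3.39, 4.37 and 2.16 at 4 weeks in ICR lenses. They were 3.25, 2.57 and 2.83 at 8 weeks and 1.82, 1.95 and 2.05 at 10 weeks, against 2.65, 4.40 and 2.49 in SD lenses. Replicate 2 was thus highest and replicate 3 lowest at 4 weeks, as for the 6 genes. Tyr, Dct, Pmel and Mlana, also below 5, did not have that order.

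Relatives of the 6 genes, the other members of their families, were mostly at low signal, and 6 of 39 measured were tested. With the block 3 of these 6 fell, namely Slc13a4 (already counted among the transport genes), Fmod at -1.46 (limma adjusted p = 0.039) and Ogn, the leucine-rich repeat protein osteoglycin, at -1.65 (adjusted p = 0.043), and 0 of 6 passed without it. Enpp6 at -1.15 did not pass. The 4 named were all in the study's lists. At 8 weeks against 4 weeks and at 10 weeks against 8 weeks, 0 of the 24 genes of the 5 lists passed limma's test in either fit. Without the block, 2 and 0 of the 24 had an unadjusted p under 0.05, beside 246 and 87 of the 4546 genes tested. Of all genes tested, 0.154% fell and 0.022% rose with the block at 8 against 4 weeks, and 0.22% fell at 10 against 8 weeks.

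By array, the eye tissue genes showed the pattern of the 6 genes in part. For the 24 genes tested, 4-week replicate 2 was the highest array of its age for 10 (19.8% of all genes) and 4-week replicate 3 the lowest for 15 (40.5%). Among those 10, Slc13a4, Zic1, Zic2 and Vcan reached 5 on 4-week replicate 2 alone, so the filter fixed that array as their highest. At 8 weeks replicate 2 was the lowest for 17 (38.0% of all genes). At 10 weeks replicate 3 was the highest for 8 (22.6% of all genes), but replicate 1, the lowest for 5 of the 6 genes, was the lowest for only 5 of the 24 (28.0% of all genes). Their mean deviation from the ICR mean was 0.52, 0.49 and -0.05 at 4 weeks, 0.24, -0.27 and -0.03 at 8 weeks, and -0.19, -0.44 and -0.27 at 10 weeks. For the 6 genes it was 0.87, 1.70 and 0.02, then 0.48, -0.66 and 0.45, then -1.33, -1.12 and -0.40.

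As lists, lens genes moved less by array. The mean deviation of the 8 lens fibre genes stayed between -0.15 and 0.11 on the 9 ICR arrays, and that of the 13 lens epithelium genes between -0.08 and 0.23. Single lens genes moved more, since Ptn ranged from 3.79 to 5.91 and Lgsn from 9.87 (4-week replicate 2) to 11.59 over the ICR arrays. The 4-week replicate 2 array was the highest of its age for 4 of the 8 fibre genes and 1 of the 13 epithelium genes. At 10 weeks against 4 weeks, Slc2a1 at -0.57 and Ptn at -0.74 fell and Lgsn at 0.92 rose with the block (limma adjusted p = 0.013, 0.009 and 0.038), and none of the lens genes passed without it. Without the block, 1 of 8 fibre genes and 3 of 13 epithelium genes had an unadjusted p under 0.05, beside 501 of the 4546 genes tested. Slc2a1 encodes a glucose transporter, Ptn the growth factor pleiotrophin and Lgsn lengsin, a protein of lens fibres.

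Immediate early genes, whose transcripts rise quickly when tissue is disturbed, also moved with some of these arrays. All 14 tested were highest in replicate 2 at 4 weeks (19.8% of all genes), and 12 of 14 were lowest in replicate 3 (40.5%). Nr4a1, Nr4a3, Ier2 and Ccn1 reached 5 in ICR lenses on 4-week replicate 2 alone, so the filter fixed that array as their highest. The mean deviation of the 14 was 2.02 in 4-week replicate 2 and -0.92 in 4-week replicate 3. The summed linear signal of the 16 measured ranged from 280 to 2446 over the 4-week, 402 to 890 over the 8-week and 246 to 836 over the 10-week ICR arrays, and from 490 to 2004 over the SD arrays. The patterns parted at 8 weeks, where replicate 2 was the lowest array for all 6 genes and for only 1 of the 14 immediate early genes. They also parted in SD lenses, where the immediate early genes stood highest at 4 weeks (1.76) and the 6 genes at 8 weeks (0.86). At 10 weeks against 4 weeks 0 of the 14 passed limma's test with or without the block, Dusp1 being at -1.17, Ccn1 at -0.89, Junb at -0.73 and Ier3 at -0.69. Their part in the values of the 6 genes was not tested.

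**Figure D4:**
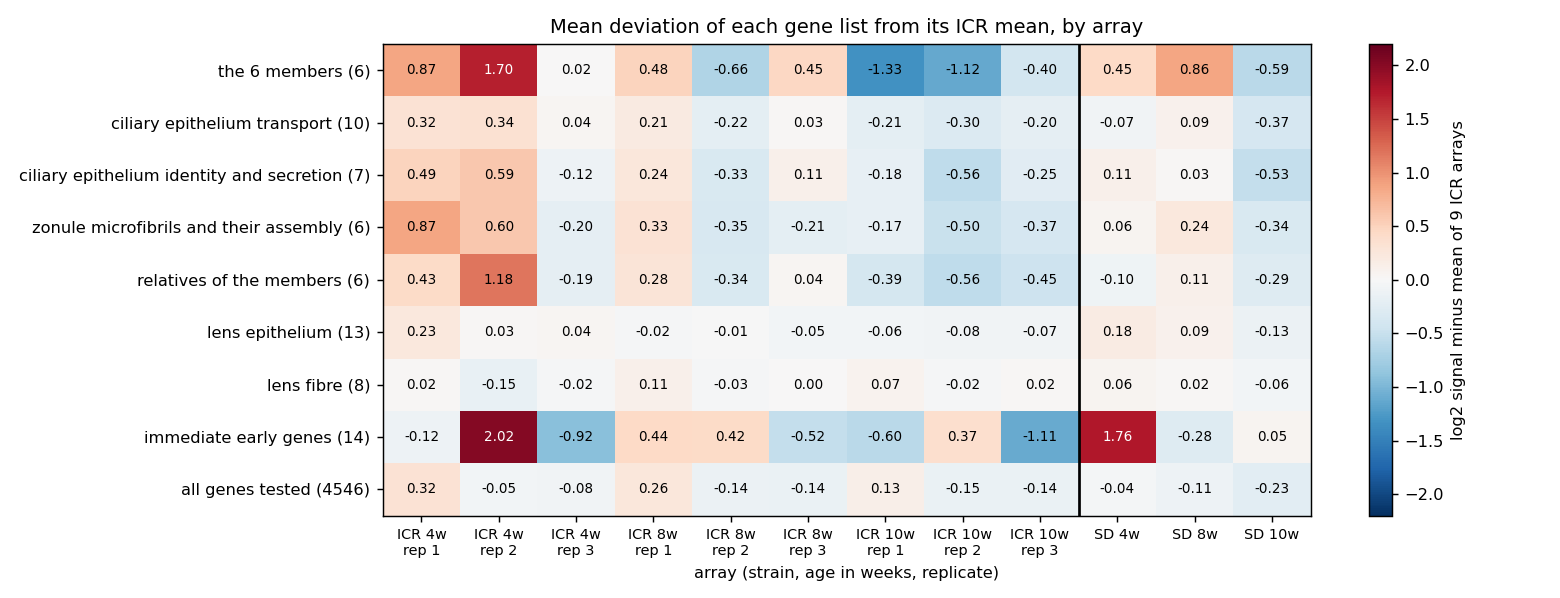
Mean over the genes of each list (rows, number of genes in brackets) of the log2 signal minus the gene's mean over the 9 ICR arrays, for each ICR array and, right of the line, each SD array (columns). The 6 genes swing from 1.70 to -1.33 across ICR arrays, lens fibre genes stay within -0.15 to 0.11, and immediate early genes peak at 2.02 in 4-week replicate 2 and at 1.76 in SD at 4 weeks.

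The strain difference was the contrast tested for the 6 genes, since it is averaged over ages. Between strains, 0 of 6 passed limma's test with age in the model, beside 0.67% of the 4627 genes tested. An unadjusted p under 0.05 was found for 0 of 6, beside 446 of the 4627. A different contrast, age within SD lenses, underlies the study's SD lists, which held 5 of the 6. Slc4a5 and Enpp2 were listed there as increased, and Slc26a4, Optc and Fbn1 as decreased. The ICR minus SD difference was 0.34 ± 0.51 (SE) for Slc26a4, -0.36 ± 0.32 for Slc13a3 and -0.16 ± 0.35 for Slc4a5 (limma adjusted p = 0.80, 0.71 and 0.85). It was -0.56 ± 0.42 for Enpp2, -0.38 ± 0.47 for Optc and -0.32 ± 0.46 for Fbn1 (limma adjusted p = 0.68, 0.77 and 0.79). The 95% intervals of limma's fit ran from -0.79 to 1.46 for Slc26a4, -1.08 to 0.36 for Slc13a3, -0.93 to 0.60 for Slc4a5, -1.48 to 0.36 for Enpp2, -1.43 to 0.67 for Optc and -1.34 to 0.70 for Fbn1. All 6 intervals held 0 and were wide enough to hold a difference of over 1.5-fold in at least 1 direction, so the strains are not shown to be alike. Leaving out 1 SD array turned the sign for 3 genes, to -0.11 for Slc26a4 without the 4-week array, to 0.022 for Slc13a3 without the 10-week array and to 0.35 for Slc4a5 without the 8-week array. Without the 8-week SD array Fbn1 was at -0.0062 and Optc at -0.083.

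SD lenses also changed with age, on 1 array each and so with no test. Between 10 and 8 weeks all 6 genes were lower in SD lenses, by a mean of -1.45 (69.0% of all genes were lower), and 5 of 6 were past 2.25-fold, beside 0.432% of all genes. Slc4a5 had the widest step, -2.03, and Slc13a3 the narrowest, -0.08. Between 10 and 4 weeks the SD mean difference was -1.04, 5 of 6 genes were lower (73.5% of all genes were) and Slc26a4, Optc and Fbn1 were past 2.25-fold, beside 0.864% of all genes. Optc differed by -1.65 in both strains.

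The 8-week SD lens ran the other way from the ICR mean. All 6 genes were higher in SD lenses at 8 weeks than at 4 weeks (39.4% of all genes were), by a mean of 0.42, and Slc4a5 at 1.06 and Enpp2 at 0.61 were past 1.5-fold, beside 1.28% of all genes. At 8 weeks the SD array lay above all 3 ICR arrays for 5 of 6 genes, all but Slc26a4, where 16.8% of all genes did so. At 4 weeks it lay within the ICR range for 6 of 6 (58.0% of all genes). At 10 weeks it lay within that range for 3 (45.9% of all genes), above it for Slc13a3 and Enpp2 (13.6%) and below it for Slc4a5 (40.4%). Whether the age difference itself differs between strains was not tested, as SD has 1 array per age. For each of the 6 genes, the range of the 3 ICR arrays at 4 weeks, 1.15 to 2.10 over the genes, was wider than its 8-week minus 4-week difference in SD lenses, 0.095 to 1.06. For Slc4a5 the ICR range at 8 weeks, 0.76, was narrower than that difference.

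**Figure D5:**
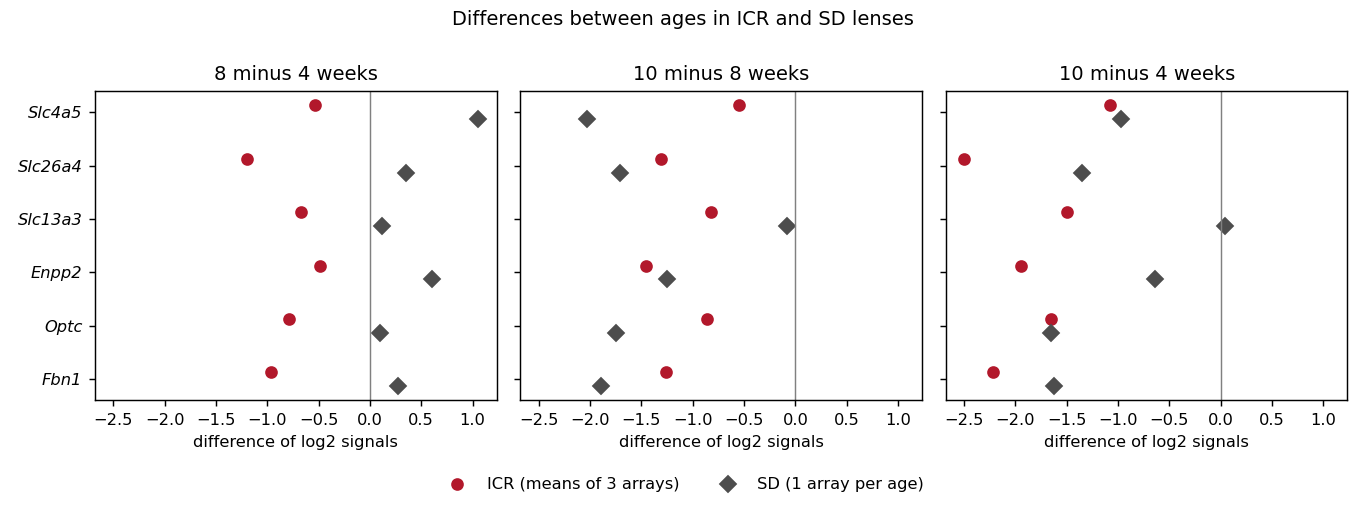
Difference of log2 signal between ages (x axis) for each gene (rows), with ICR as circles (means of 3 arrays) and SD as diamonds (1 array per age). ICR lies left of 0 in all 3 panels, and SD lies right of 0 for all 6 genes at 8 minus 4 weeks and left of it for all 6 at 10 minus 8 weeks.

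Promoters were looked at because the 6 genes shared an array pattern. RefSeq promoter windows on GRCr8, from 250 bases before to 50 after the start site, were matched for 4 of the 6, namely Slc4a5, Slc26a4, Slc13a3 and Fbn1. Only the window of Slc13a3 lay at the outer start of its gene. Those of Slc26a4, Fbn1 and Slc4a5 lay wholly inside the annotated gene, at internal start sites, and need not be the main promoter. Slc26a4 at chr6:53873167-53873466 and Slc13a3 at chr3:174623844-174624143, both on the minus strand, are shown because Slc13a3 alone held any searched motif and Slc26a4 had the widest age difference. Capitals mark the E-box CACGTG.
Slc26a4: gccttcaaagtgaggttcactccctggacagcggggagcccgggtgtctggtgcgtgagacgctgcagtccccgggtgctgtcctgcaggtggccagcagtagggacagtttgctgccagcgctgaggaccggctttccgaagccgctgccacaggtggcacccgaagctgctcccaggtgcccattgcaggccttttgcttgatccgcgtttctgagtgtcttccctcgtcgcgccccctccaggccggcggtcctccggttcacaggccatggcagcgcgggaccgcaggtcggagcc
Slc13a3: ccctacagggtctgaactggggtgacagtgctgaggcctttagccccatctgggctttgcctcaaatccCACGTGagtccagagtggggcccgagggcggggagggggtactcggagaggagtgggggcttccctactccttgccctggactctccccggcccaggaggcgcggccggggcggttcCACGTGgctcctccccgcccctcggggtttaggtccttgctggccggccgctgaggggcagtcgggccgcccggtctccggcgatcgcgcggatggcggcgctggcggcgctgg

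The 6 motifs were searched on both strands, with no overlap between the matches found. CACGTG was in 6.42% of 33469 promoter windows of this length and, among the 4, in Slc13a3 only. The OTX motif TAATCC (7.17% of windows), the AP-1 motif TGANTCA (7.33%), the TATA motif TATAAA (14.2%), the TEAD motif GGAATG (14.2%) and the cyclic AMP response motif TGACG (21.2%) were in none of the 4. No motif was therefore shared by the 4 windows. These are matches of letters in these windows only.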

How the data were processed

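Lens RNA was hybridised to Rat Gene 2.0 ST arrays. The authors normalized the scans by RMA in R, and the deposited values are log2 signals of 36685 probe sets, used here as deposited. Of these, 18511 had 1 gene symbol, 575 several and 17599 none listed, which left 18166 genes. A gene with several probe sets was read from the one with the highest ICR mean. As in the study's methods, genes below 5 on every array of a fit were left out. Intensity limits precision, and only 12 arrays were measured.

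Python 3.11.15 and limma 3.58.1 in R 4.3.3 were used, tested on simulated data. The 9 ICR arrays were fitted with 3 ages (4546 genes), and all 12 with age and strain (4627 genes), two-sided, with Benjamini-Hochberg adjustment over all genes and a threshold of 0.05. Across ages, same-numbered ICR arrays departed from their age means alike (r between 0.55 and 0.85 for all 9 such pairs), a check of the data and not a statement of the labels, so the replicate number was also fitted as a block. Arrays numbered 2 and 3 were also alike across these numbers (r between 0.34 and 0.51), while those numbered 1 ran opposite to both. The p-values measure the spread between these arrays. Alternatives were quantile and cyclic loess normalization, other filters, variance models, array weights and leaving out arrays.

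Named genes were the 6, up to 4 per list by smallest p at 10 against 4 weeks, and the 8 most alike in each of 2 ways. Ptgds and Slc12a2 were also named, for their rise, and pigment markers for their tissue. The members, lists and tests were chosen with earlier results of these data known. The study's tables were used to count which genes it had listed, and their fold changes were not used.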

Additional observations from a re-analysis of the deposited data

Results flagged for a closer look

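For the 6 genes, 6 differences between ages ran in opposite directions in SD and ICR lenses, in that every later ICR array lay below the earlier ICR mean while the SD signal was higher. These differences between strains were not tested, because SD had 1 array per age. At 8 minus 4 weeks the SD changes were 1.06 for Slc4a5, 0.35 for Slc26a4, 0.11 for Slc13a3, 0.095 for Optc and 0.27 for Fbn1 on the log2 scale, against ICR changes of -0.53, -1.19, -0.67, -0.79 and -0.96. At 10 minus 4 weeks the SD change of Slc13a3 was 0.038, against -1.50 in ICR lenses. All 5 differences at 8 weeks rest on the same pair of SD arrays.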

How the results depend on the processing

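The mean difference of the 6 genes in ICR lenses kept its direction at 10 minus 4 and at 10 minus 8 weeks under every alternative run. At 8 minus 4 weeks it became 0.024 without the replicate 2 arrays at every age, with Slc4a5 at 0.064, Enpp2 at 0.46 and Optc at 0.17. Over all settings that left out arrays it ranged from -2.51 (without replicate 3 at every age) to -1.31 at 10 minus 4 weeks, from -1.38 to 0.024 at 8 minus 4 weeks, and from -1.42 to -0.66 at 10 minus 8 weeks. The replicate block left the members' differences as they were, at -1.81 for 10 minus 4 weeks, since every number occurs once per age. The count of other eye tissue genes called at 10 against 4 weeks was 0, with 8 under the replicate block, 1 after quantile normalization and 0 to 1 when arrays were left out (1 without ICR 4-week replicate 3). The block changed no other count of calls on the 5 eye tissue lists. No member was called between strains under any alternative. Leaving out each SD array, an alternative chosen after seeing the data, gave an ICR minus SD difference of -0.45 to 0.35 for Slc4a5 (positive without SD 8 weeks), of -0.11 (without SD 4 weeks) to 0.66 for Slc26a4, and of -0.75 to 0.022 for Slc13a3 (positive without SD 10 weeks). Over the same settings Enpp2 ranged from -0.96 to -0.30, Optc from -0.53 to -0.083 and Fbn1 from -0.62 to -0.0062. The causes were not tested. Averaging probe sets gave no other value, since each member had 1, and without ICR 4-week replicate 2 Slc13a3 was below 5 on every ICR array.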
